A study of Mus musculus with 4 samples.

Results

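Oxidative phosphorylation is carried out by 5 protein complexes of the inner mitochondrial membrane, 4 respiratory chain complexes and ATP synthase, and its genes were followed here in cerebral cortex taken from mouse embryos on embryonic day 15 (E15). The genes were chosen by symbol from the 13289 genes of a count table: mitochondrially encoded genes whose symbols begin with mt-Nd, mt-Co, mt-Atp or mt-Cytb, and nuclear genes named Nduf, Uqcr or Atp5, the numbered Cox subunits with a letter a, b or c, and Sdha to Sdhd. This gave 102 genes, of which 13 are encoded by the mitochondrial genome and 89 by the nucleus. Among the nuclear genes, 78 encode subunits (37 of complex I, 4 of complex II, 8 of complex III, 12 of complex IV and 17 of complex V), 8 are complex I assembly factors named Ndufaf, 2 are subunit-like genes (Ndufa4l2 and Cox7a2l) and 1 is a pseudogene (Cox5b-ps). Ndufa4 was counted with complex IV, where its protein is known to sit despite its name. All 102 genes passed the filter on low counts, and the lowest count of any of them in any library was 21. The rule does not take Cox4i1, Cyc1 or Cycs, which are given with the other pathway genes.

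RNA-seq of polyadenylated RNA from fresh tissue was made in 2 control libraries, titled WT, and 2 Lhx2 cKO libraries. WT is taken to stand for wild type and cKO for conditional knockout, the loss of a gene in chosen cells only. Lhx2 encodes a LIM-homeodomain transcription factor of cortical progenitors. The Cre driver, the allele, the sex and any pooling of embryos are not stated in the labels, and nothing states that libraries of a group came from separate embryos. P-values therefore rest on the spread between these libraries, largely shared across genes, and that spread may be technical. In whole tissue, fewer cells of a type and less RNA per cell cannot be told apart.

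The respiratory chain passes electrons from NADH, through complex I, and from succinate, through complex II, to complex III, cytochrome c and complex IV, where oxygen is reduced to water. Complexes I, III and IV pump protons out of the matrix, and ATP synthase, complex V, lets them back to make ATP. The mitochondrial genome is copied into long transcripts from both strands that are then cut into single RNAs, whereas nuclear subunits are transcribed one by one, translated in the cytosol and imported. Neurons are known to depend more on oxidative phosphorylation than dividing neural progenitors, which make more use of glycolysis.

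Total counts per library over the genes analysed ranged from 22294237 to 24609627, and the detection floor of 3 counts equals 0.122 to 0.135 CPM, taken over the library total alone. CPM values of genes are counts scaled to the library total and its TMM factor. Lhx2 itself was at 316 and 287 CPM in control against 239 and 247 CPM in Lhx2 cKO (log2 fold change -0.31, SE 0.0976, edgeR adjusted p = 0.0191), and its adjusted p was 0.176 without control 1, 0.102 without Lhx2 cKO 1 and 0.0538 without Lhx2 cKO 2. Whether the counted reads lie in the deleted part of the gene is not known here. With the same test, 2758 of 13288 genes were called, meaning an adjusted p under 0.05. That is 20.8% of genes, with 11.6% higher and 9.17% lower in Lhx2 cKO. The makeup of markers differed between the groups. Of 6 cell cycle markers 5 fell (summed level 328 and 371 CPM in control, 212 and 211 CPM in Lhx2 cKO), and of 6 intermediate progenitor markers 4 fell (584 and 572 against 329 and 329 CPM). Of 10 radial glial markers 1 rose and 4 fell (852 and 897 against 810 and 788 CPM). Of 9 microglial markers 8 rose (117 and 118 against 239 and 264 CPM), as did 4 of 5 astrocyte and 4 of 5 oligodendrocyte precursor markers. Of 8 endothelial and mural markers 5 rose and 1 fell (242 and 277 against 306 and 343 CPM), and of 7 interneuron markers 2 rose (242 and 208 against 289 and 281 CPM). Of 11 neuronal markers 2 rose and 2 fell (5392 and 5323 against 5494 and 5785 CPM). Of 7 red blood cell markers 5 fell and 1 rose (3179 and 2344 against 2134 and 1903 CPM). The meningeal list had 3 genes tested, of which 1 fell (summed level 38.8 and 36.2 against 18.6 and 16.4 CPM). The 1 choroid plexus marker tested was not called. The part of these marker levels in the results below was not tested.

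The 13 mitochondrially encoded genes held 11.2% and 10.02% of all counts in control, against 10.7% and 12.8% in Lhx2 cKO. Their summed level was 113854 and 98059 CPM in control against 104651 and 132106 CPM in Lhx2 cKO. The groups overlapped, since Lhx2 cKO 1 lay between the control libraries and Lhx2 cKO 2 above both. The 89 nuclear genes summed to 6393 and 6396 CPM in control, against 6816 and 7308 CPM in Lhx2 cKO, and here the groups did not overlap. The difference of the mean sums was similar in percent, 11.7% for the mitochondrial and 10.4% for the nuclear genes. The SD of the mitochondrial sums was 11168 CPM in control and 19414 CPM in Lhx2 cKO. For the nuclear sums it was 2.3 CPM in control and 348 CPM in Lhx2 cKO. These SDs are of TMM-scaled sums from 2 libraries. Before TMM scaling, the nuclear genes held 0.63% and 0.654% of all counts in control, against 0.696% and 0.711% in Lhx2 cKO. Mitochondrial counts were 17.8 and 15.3 times the nuclear ones in control, against 15.3 and 18.1 times in Lhx2 cKO, again overlapping.

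**Figure D1:**
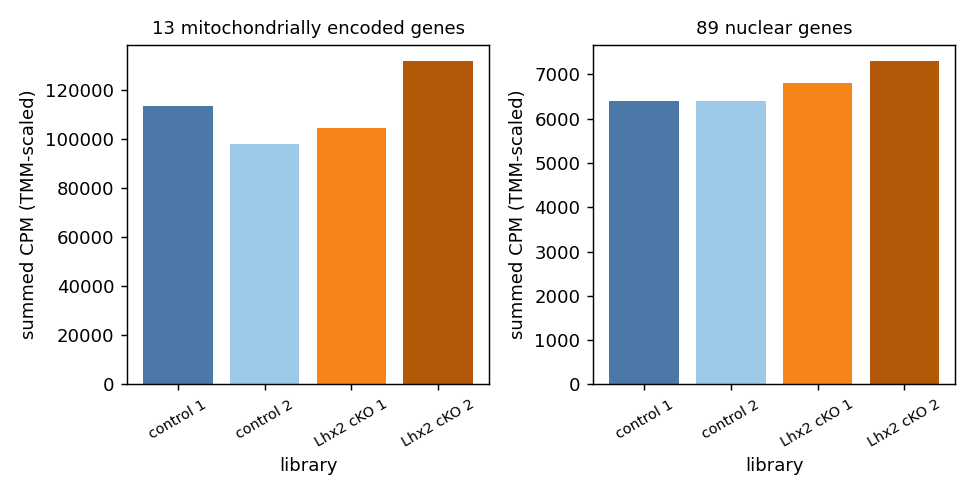
Summed CPM, scaled with TMM factors, of the 13 mitochondrially encoded genes (left) and the 89 nuclear genes (right), 1 bar per library, axes from 0. The nuclear sum is above both control libraries in both Lhx2 cKO libraries, while the mitochondrial sum of Lhx2 cKO 1 lies between those of the control libraries.

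None of the 13 mitochondrially encoded genes was called by edgeR (0 of 13, against 20.8% of all genes), and 2 had an unadjusted p under 0.05. DESeq2 called 0 and limma-voom 1 of them, mt-Co2. The fold change was above 0 for 12 of the 13, where 50.5% of all genes were, and the median log2 fold change was 0.18 beside 0.0034 for all genes. This median rested on Lhx2 cKO 2: without that library it was -0.0013, with 6 of 13 above 0, and without Lhx2 cKO 1 it was 0.33. Without Lhx2 cKO 1, 3 genes were called (mt-Atp8, mt-Co2 and mt-Co3), and without control 1 the call was mt-Co2 alone. Lhx2 cKO 2 was the highest library for 12 of the 13 genes and control 2 the lowest for 11. Within the groups, control 1 exceeded control 2 for 12 genes, by a median of 0.21 on the log2 scale, and Lhx2 cKO 2 exceeded Lhx2 cKO 1 for all 13, by a median of 0.27. The corresponding medians were 0.03 and 0.09 for the nuclear genes, and -0.0011 and 0.01 for all genes. Libraries of 1 group thus differed in mitochondrial transcripts by more than the groups did.

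**Figure D2:**
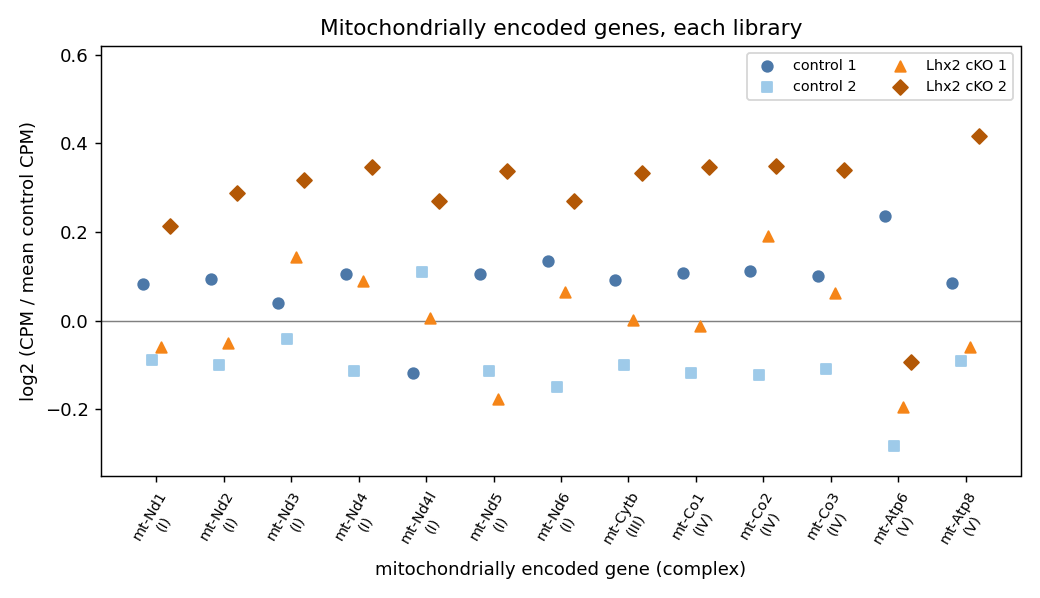
Level of each mitochondrially encoded gene in each library, as log2 of CPM over the mean CPM of the control libraries, with the complex in brackets. Lhx2 cKO 2 (brown diamonds) is the highest library for every gene but mt-Atp6, and Lhx2 cKO 1 (orange triangles) lies near the control libraries for most.

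Among the 7 mitochondrially encoded complex I subunits, which form the proton-pumping membrane arm, mt-Nd1 was at 12130 and 10771 CPM in control against 10993 and 13270 CPM in Lhx2 cKO. The mt-Nd4 transcript was at 8216 and 7056 CPM in control against 8123 and 9710 CPM. For mt-Nd5 the values were 6199 and 5323 CPM in control against 5097 and 7281 CPM in Lhx2 cKO. In all 3 the groups overlapped, with Lhx2 cKO 1 below the higher control library. Levels of mt-Nd2 (5784 and 5060 against 5237 and 6623 CPM) and mt-Nd6 (1646 and 1351 against 1568 and 1807 CPM) overlapped too. The shortest of these genes were low for this genome, with mt-Nd4l at 47.9 and 56.1 CPM against 52.3 and 62.7 CPM, and mt-Nd3 at 31.7 and 29.97 CPM against 34.1 and 38.4 CPM. For mt-Nd3 both Lhx2 cKO libraries lay above both control libraries (log2 fold change 0.23, adjusted p = 0.135).

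Cytochrome b, encoded by mt-Cytb and the only mitochondrially encoded subunit of complex III, was at 24016 and 21025 CPM in control against 22551 and 28356 CPM in Lhx2 cKO (log2 fold change 0.18). The catalytic core of complex IV is built from 3 mitochondrially encoded subunits. Its largest, mt-Co1, was the most abundant of the 102 genes, at 52072 and 44542 CPM in control against 47936 and 61389 CPM in Lhx2 cKO (log2 fold change 0.18, SE 0.163, adjusted p = 0.486). The groups overlapped for both genes. The mt-Co2 transcript was at 319 and 271 CPM against 337 and 376 CPM, and mt-Co3 at 328 and 284 CPM against 319 and 387 CPM. Only mt-Co2 of these had groups that did not overlap, and its log2 fold change of 0.27 (SE 0.103, adjusted p = 0.0531) was just outside the threshold. It passed in 5 alternative fits of all 4 libraries, named in the closing section.

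The ATP synthase subunits mt-Atp8 and mt-Atp6, parts of its membrane sector, differed in direction. mt-Atp6 was the 1 mitochondrially encoded gene with a fold change below 0: 2265 and 1583 CPM in control against 1680 and 1802 CPM in Lhx2 cKO (log2 fold change -0.14), and without control 1 its value was 0.13. mt-Atp8 was at 799 and 707 CPM against 723 and 1005 CPM. The ratio of mt-Atp8 to mt-Atp6 counts within a library was 0.353 and 0.447 in control against 0.43 and 0.558 in Lhx2 cKO, so the groups overlapped. These genes are known to share 1 transcript, as do mt-Nd4l and mt-Nd4. The mt-Nd4l to mt-Nd4 ratio was 0.00583 and 0.00796 in control, against 0.00643 and 0.00646 in Lhx2 cKO.

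The reading frames of both pairs overlap, so reads across the junction belong to both genes. The junctions are shown since they bear on how counts fall to each gene. They are printed 5′ to 3′ on the plus strand of the mitochondrial chromosome from the GENCODE M21 transcripts (GRCm38), with the bases common to both genes in capitals: 43 bases for mt-Atp8 and mt-Atp6 in chrM:7915-7981, and 7 bases for mt-Nd4l and mt-Nd4 in chrM:10155-10185.
mt-Atp8 into mt-Atp6: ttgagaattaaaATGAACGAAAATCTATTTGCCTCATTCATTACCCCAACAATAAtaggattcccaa
mt-Nd4l into mt-Nd4: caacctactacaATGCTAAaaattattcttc
The 43 shared bases are 43 of the 204 coding bases of mt-Atp8 and of the 681 of mt-Atp6. mt-Nd5 and mt-Nd6 overlap on opposite strands in the annotation, and the strand setting of the counting is not stated. Reads of those 2 genes can therefore not be told apart where they overlap.

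Levels between genes were compared as RPKM, CPM per kilobase of the deposited gene length, averaged over the 4 libraries. By this measure mt-Co1 (33324 RPKM), mt-Cytb (20968) and mt-Nd1 (12321) led, and mt-Co2 (476), mt-Co3 (420), mt-Nd4l (184) and mt-Nd3 (96.4) were lowest. The 4 lowest all have a near-identical nuclear copy in the annotation, meaning at least 97% identity over at least 100 bases. Such a copy was found for 7 of the 13 genes, also for genes with high levels. The highest, mt-Co1, has 1545 aligned bases at 97.6% identity to Gm13340 on chromosome 2. mt-Nd4 (6006 RPKM) and mt-Atp6 (2691 RPKM) have copies too. Of the low genes, mt-Co2 has 681 aligned bases at 100% identity to Gm28661 on chromosome 1, and mt-Co3 has 783 at 100% to Gm28437. How the counting treated reads that map to several places is not stated, so levels of the 7 genes are uncertain. The 6 genes without a copy (mt-Cytb, mt-Nd1, mt-Nd2, mt-Nd5, mt-Nd6 and mt-Atp8) ranged from 3070 to 20968 RPKM. Their median log2 fold change was 0.15, with 6 of 6 above 0, against 0.21 for the 7 with a copy. Without Lhx2 cKO 2 the medians were -0.06, with 5 of 6 below 0, and 0.06. Without control 2 they were 0.04 and 0.12, without Lhx2 cKO 1 0.31 and 0.34, without control 1 0.24 and 0.28, and with the length trend removed 0.03 and 0.1045.

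**Figure D3:**
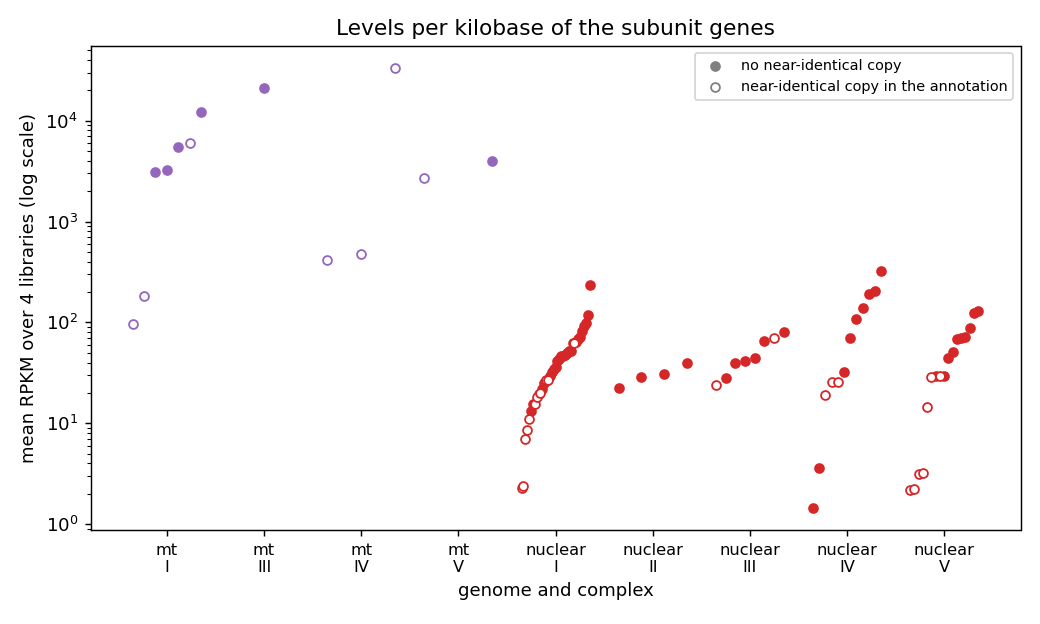
Mean RPKM over 4 libraries (log scale) of each subunit gene by genome and complex, with open circles for genes that have a near-identical copy in the annotation. The mitochondrial genes without a copy all lie at 3070 RPKM or higher, whereas nuclear subunits reach at most 326 RPKM.

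Among the 89 nuclear genes, 10 rose and none fell: 11.2% were called, against 11.6% of all genes called higher, so in this fit the share was near the background. DESeq2 called 6 higher and limma-voom 10, both 0 lower, and 27 genes had an unadjusted p under 0.05, all higher. The fold change was nevertheless above 0 for 74 of 89 (83.1%, beside 50.5% of all genes). The median log2 fold change was 0.15, a fold of 1.11, beside 0.0034 for all genes. Both Lhx2 cKO libraries lay above both control libraries for 61 genes (30.2% of all genes did so) and below them for 1, Ndufab1 (29.1% of all genes). In either direction 59.3% of all genes had groups apart. The individual SEs were close in size to these differences, with a median of 0.101 on the log2 scale. The count of calls was 2 without Lhx2 cKO 2 (Atp5g1 and Ndufa13), 4 without control 1, 5 without control 2 and 12 without Lhx2 cKO 1, and the medians in these fits ran from 0.10 to 0.17. Of all genes, 6.51%, 7.49%, 9.62% and 10.5% were called higher in those fits, in the same order, beside 2.2%, 4.5%, 5.6% and 13.5% of the nuclear genes. Removing a trend with gene length left 6 calls, 6.7% of the nuclear genes beside 12.1% of all genes called higher, and a median of 0.09. With DESeq2 the shares were 6.7% and 8.99%.

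**Figure D4:**
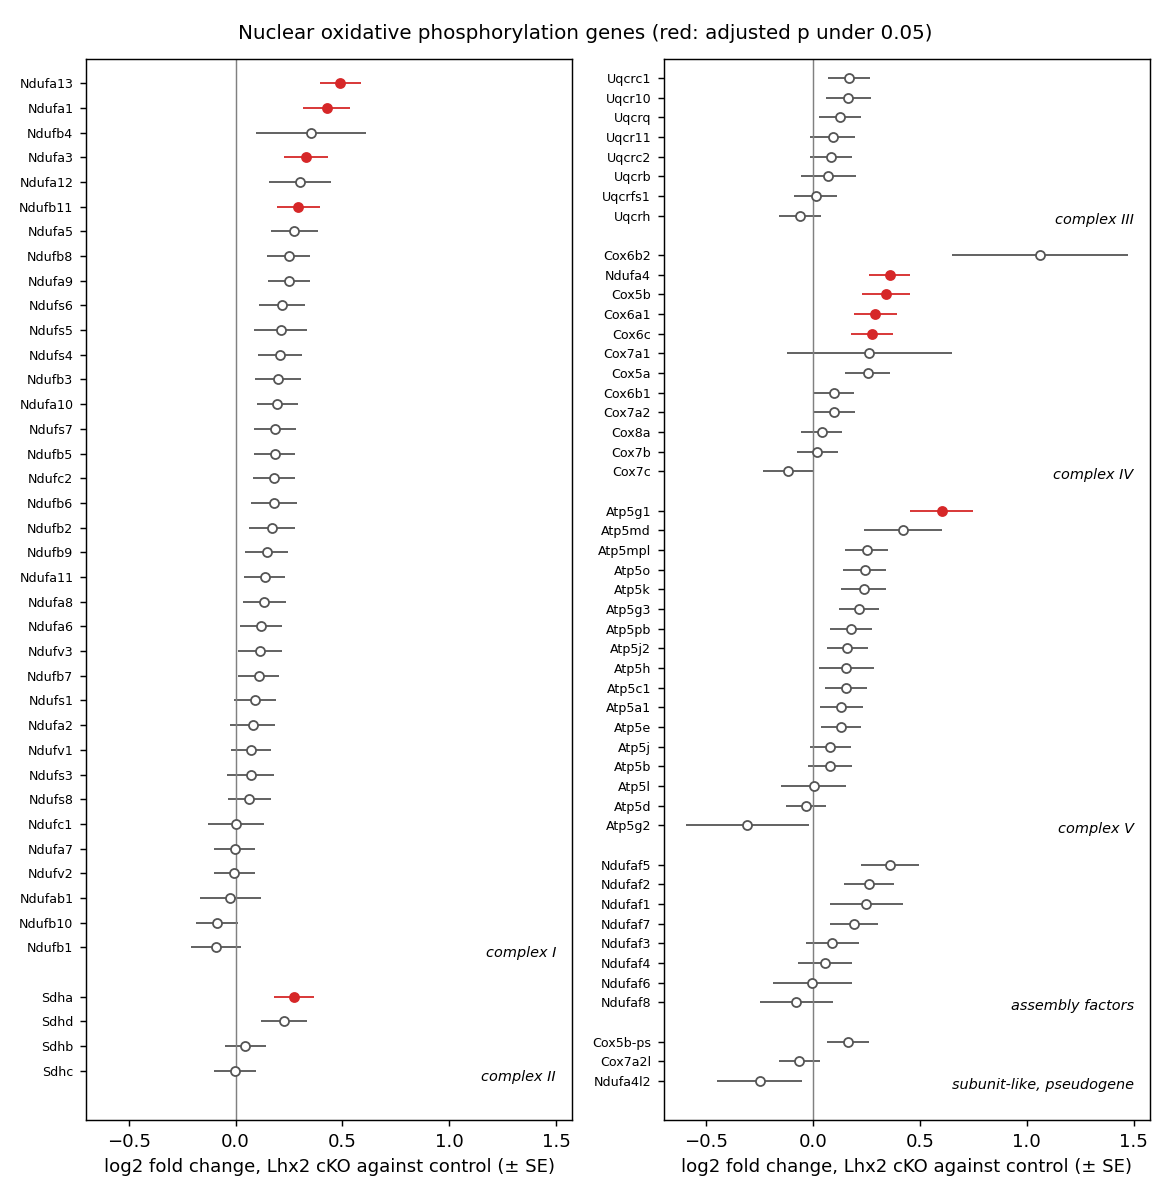
Log2 fold change (Lhx2 cKO over control) with its SE for 88 of the 89 nuclear genes, grouped by complex and class; red marks an adjusted p under 0.05. Most points lie right of 0, and the 10 called genes fall in complexes I, II, IV and V.

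Complex I, the NADH dehydrogenase, had 4 of its 37 nuclear subunits called, all higher (10.8%, beside 11.6% of all genes called higher). The median log2 fold change of the 37 was 0.17, with 31 above 0. The median was 0.106 without Lhx2 cKO 2 and 0.09 with the length trend removed. Ndufa13, an accessory subunit also known as GRIM-19, was at 121 and 126 CPM in control against 164 and 182 CPM in Lhx2 cKO (log2 fold change 0.49, SE 0.0954, adjusted p = 0.000155). It had the smallest adjusted p of the 102 genes. Ndufa1, an X-linked accessory subunit of the membrane arm, was at 34.8 and 34.97 CPM against 41.5 and 52.2 CPM (log2 fold change 0.43, SE 0.110, adjusted p = 0.00401). Ndufa3 was at 43.9 and 46.5 CPM against 52.7 and 60.9 CPM (log2 fold change 0.33, adjusted p = 0.0178), and Ndufb11, also X-linked, at 68.6 and 64.9 CPM against 76.3 and 87.4 CPM (log2 fold change 0.29, adjusted p = 0.0301). In all 4 the groups were apart and Lhx2 cKO 2 was the higher of its group. Without that library the calls of Ndufa1 (0.25, adjusted p = 0.264), Ndufa3 (0.22, adjusted p = 0.319) and Ndufb11 (0.19, adjusted p = 0.392) were lost. Those of Ndufa3 and Ndufb11 were also lost without control 1 and with DESeq2, that of Ndufb11 without control 2, and all 3 with the length trend removed. The called genes are accessory subunits. Among core subunits, some of which carry the flavin or iron-sulfur clusters, Ndufv1 was at 122 and 115 CPM against 125 and 124 CPM (log2 fold change 0.07). Ndufs1, Ndufs3, Ndufs7, Ndufs8 and Ndufv2 had log2 fold changes of 0.09, 0.07, 0.18, 0.06 and -0.0052. Per length, Ndufc2 was highest at 237 RPKM, with a CPM of 172 and 164 in control against 174 and 206 in Lhx2 cKO (adjusted p = 0.2).

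Each of Ndufa13, Ndufa3 and Ndufb11 overlaps a neighbouring gene on the opposite strand in the annotation (Tssk6, Tfpt and Rbm10), so some of their reads may belong to the neighbour. Over the 4 libraries Tssk6 held 106 counts beside 13978 for Ndufa13. Tfpt held 2819 beside 4823 for Ndufa3, and Rbm10 5156 beside 7026 for Ndufb11. In all, 42 of the 102 genes overlap another gene, 32 of them on the opposite strand. The X-linked Cox7b was not called (log2 fold change 0.02). Xist and Y-linked transcripts were found in all 4 libraries. Xist was at 1918 and 1962 CPM in control against 1598 and 1600 CPM in Lhx2 cKO (adjusted p = 0.0803), and the Y-linked Eif2s3y at 52.5 and 57.8 CPM against 74.0 and 73.0 CPM (adjusted p = 0.00192). The other Y-linked genes were not called: Kdm5d had a log2 fold change of 0.33 (adjusted p = 0.0572), and Ddx3y (0.16, adjusted p = 0.38) and Uty (0.07, adjusted p = 0.88) had groups that overlapped. The part of sex makeup in the 2 X-linked calls was not tested.

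The 8 complex I assembly factors, which help build the complex but are not in it, had 0 calls by edgeR, DESeq2 or limma-voom and 2 unadjusted p under 0.05. Ndufaf5 was nearest to the threshold, at 17.8 and 16.8 CPM in control against 20.2 and 24.3 CPM in Lhx2 cKO (log2 fold change 0.36, adjusted p = 0.0523). Ndufaf2 was at 26.0 and 25.5 CPM against 28.8 and 32.9 CPM (adjusted p = 0.112). The groups overlapped for Ndufaf3, Ndufaf6 and Ndufaf8, and the median over the 8 was 0.14, and 0.06 without Lhx2 cKO 1.

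Complex II, succinate dehydrogenase, also serves the citric acid cycle and has no mitochondrially encoded subunit. Sdha, its flavoprotein with the catalytic site, was at 105 and 108 CPM in control against 125 and 132 CPM in Lhx2 cKO (log2 fold change 0.27, SE 0.0940, adjusted p = 0.0336), with the groups apart. The call was lost whichever library was left out (adjusted p 0.053 to 0.236), and with library totals alone. The membrane anchor Sdhd was at 33.1 and 36.0 CPM against 38.4 and 42.5 CPM (adjusted p = 0.135). The iron-sulfur subunit Sdhb (86.2 and 89.6 against 92.2 and 89.4 CPM) and the anchor Sdhc (75.1 and 71.5 against 69.5 and 76.9 CPM) overlapped between the groups. Sdhb was the highest of the 4 per length, at 39.9 RPKM.

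Complex III, the cytochrome bc1 complex, had 0 of 8 nuclear subunits called by edgeR, DESeq2 or limma-voom, none with an unadjusted p under 0.05. Its median log2 fold change of 0.09 was the lowest of the 5 complexes' nuclear subunits, though the difference between complexes was not tested. This median was -0.0009 with the length trend removed, 0.03 without Lhx2 cKO 2 and 0.06 without control 2. The core subunit Uqcrc1 had the largest value, 0.17, from 147 and 175 CPM in control against 181 and 182 CPM in Lhx2 cKO. Uqcrfs1, the Rieske iron-sulfur protein, was at 60.7 and 58.5 CPM against 60.9 and 59.2 CPM. Uqcrh, the highest per length at 80.3 RPKM, was at 106 and 96.6 CPM against 90.8 and 104 CPM. The groups overlapped for the latter pair.

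Complex IV, cytochrome c oxidase, had 4 of 12 nuclear subunits called, all higher (33.3%, beside 11.6% of all genes called higher). The median log2 fold change was 0.2594. Cox6b2 (1.06) and Cox7a1 (0.2631, groups overlapping), both of low counts, lay above it. The 12 subunits summed to 1041 and 1010 CPM in control, against 1115 and 1239 CPM in Lhx2 cKO. The median was 0.0995 without control 2, 0.15 without Lhx2 cKO 2 and 0.14 with the length trend removed. Ndufa4 was at 162 and 175 CPM in control against 203 and 228 CPM in Lhx2 cKO (log2 fold change 0.36, SE 0.0969, adjusted p = 0.00605). Cox6a1, which sits at the dimer interface and was the highest nuclear subunit per length (326 RPKM), was at 208 and 203 CPM against 228 and 275 CPM (log2 fold change 0.29, adjusted p = 0.0321). Cox6c, an accessory subunit, was at 107 and 102 CPM against 117 and 136 CPM (log2 fold change 0.28, adjusted p = 0.0375). The groups were apart for all 3, with the largest gap between libraries of 1 group in Lhx2 cKO. Ndufa4 lost its call without control 1 or Lhx2 cKO 2. Cox6a1 and Cox6c lost theirs without either control library or Lhx2 cKO 2, and without the latter their values were 0.15 (adjusted p = 0.532) and 0.15 (adjusted p = 0.495). Cox6a1 also lost it with the length trend removed (0.17, adjusted p = 0.224), and Cox6c with DESeq2 (adjusted p = 0.0693). Cox6c overlaps Vps13b on the opposite strand. Cox5a, not called, was at 54.1 and 44.3 CPM against 55.8 and 61.7 CPM, with the groups apart (log2 fold change 0.26, adjusted p = 0.0815), and it was called without control 1. Cox7b, Cox8a and Cox6b1 had log2 fold changes of 0.02, 0.04 and 0.10, and Cox7c was at 32.5 and 27.6 CPM against 27.5 and 27.8 CPM (-0.12).

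Cox5b, a zinc-binding subunit, was at 26.8 and 26.5 CPM in control against 33.5 and 33.997 CPM in Lhx2 cKO (log2 fold change 0.34, SE 0.112, adjusted p = 0.0253), close within each group. The call was lost with DESeq2 (adjusted p = 0.0684) and whichever library was left out (adjusted p 0.0689 to 0.134), with log2 fold changes of 0.33 to 0.35. Its pseudogene Cox5b-ps has 99.2% identity to it over 390 bases and held more counts, 8478 against 2855 over the 4 libraries. The pseudogene row was at 87.9 and 80.9 CPM against 93.4 and 95.7 CPM (log2 fold change 0.16, adjusted p = 0.247). The counting may have split reads of the parent gene between the rows, so the value of Cox5b is uncertain. The ratio of Cox5b to Cox5b-ps counts was 0.304 and 0.328 in control against 0.359 and 0.355 in Lhx2 cKO.

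Several subunits exist as paralogues with different tissue ranges. Cox6b2, known mainly from testis, was low, at 0.866 and 1.2003 CPM in control against 2.20 and 2.13 CPM in Lhx2 cKO. Its log2 fold change of 1.06 was the largest of all 102 genes but missed the threshold (SE 0.411, adjusted p = 0.0605), whereas in the authors' deposited table its adjusted p was 0.0423. The ubiquitous Cox6b1, whose coding sequence is 65.4% identical, was at 133 and 130 CPM against 140 and 141 CPM. Cox7a1, the heart and muscle form, was at 2.23 and 1.24 CPM against 2.15 and 2.002 CPM, and the common form Cox7a2 at 102 and 96.7 CPM against 103 and 110 CPM. Ndufa4l2, the hypoxia-inducible relative of Ndufa4, had the opposite sign to it: 8.74 and 8.12 CPM in control against 8.26 and 5.92 CPM in Lhx2 cKO (log2 fold change -0.25, adjusted p = 0.412), with the groups overlapping. Cox7a2l, known to join complexes III and IV, was at 128 and 118 CPM against 115 and 120 CPM (adjusted p = 0.688).

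ATP synthase had 1 of its 17 nuclear subunits called, higher (5.88%, beside 11.6% of all genes called higher). The median log2 fold change of the 17 was 0.16, with 15 above 0. The median was 0.1027 without control 1 and 0.1002 without Lhx2 cKO 2. The called gene was Atp5g1, 1 of 3 genes that encode the same mature c subunit of the proton-driven rotor. It was at 12.2 and 12.6 CPM in control against 19.4 and 18.2 CPM in Lhx2 cKO (log2 fold change 0.60, SE 0.146, adjusted p = 0.00213), the largest fold among the called genes, 1.52. It and Ndufa13 were the only genes of the 102 that were called whichever library was left out. Atp5g3, the most abundant of the 3 as counted, was at 146 and 142 CPM against 159 and 175 CPM (log2 fold change 0.21, adjusted p = 0.107). Atp5g2 was at 3.09 and 5.08 CPM against 3.16 and 3.44 CPM (-0.31, adjusted p = 0.496), and without control 2 its value was 0.09. Coding sequences of the 3 are 72.6% to 78.8% identical. Atp5g1 also has a near-identical copy, Gm10039, at 99.8% over 411 bases. Atp5g2 has copies at 100% over 441 bases, Gm10175 and Gm10231, and none was found for Atp5g3. How the counting treated reads that map to several places is not stated. The values of Atp5g1 and Atp5g2, and their rank beside Atp5g3, are therefore uncertain. The catalytic β subunit gene Atp5b was the highest of the complex per length (129 RPKM), at 514 and 547 CPM in control against 551 and 568 CPM in Lhx2 cKO (log2 fold change 0.08, adjusted p = 0.66). The α subunit gene Atp5a1 was at 366 and 376 CPM against 399 and 414 CPM (0.13), and the δ subunit gene Atp5d at 177 and 166 CPM against 162 and 173 CPM (-0.03).

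Near-identical copies were found for 25 of the 89 nuclear genes. The 64 without one had 8 calls and a median log2 fold change of 0.14, and the 25 with one had 2 calls and a median of 0.16. All of these calls were higher, beside 11.6% of all genes called higher. Gene length also moved with the fold change. The nuclear genes are short, with a median deposited length of 1675 bases against 4639 for all genes. Of the other genes, those under 1000 bases had a median log2 fold change of 0.08, those from 1000 to 2000 of 0.06, those from 2000 to 4000 of 0.03, and those of 4000 or more of -0.02. Nuclear oxidative phosphorylation genes in the same 4 classes had medians of 0.17 (n = 20), 0.13 (n = 36), 0.15 (n = 22) and 0.17 (n = 11).

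**Figure D5:**
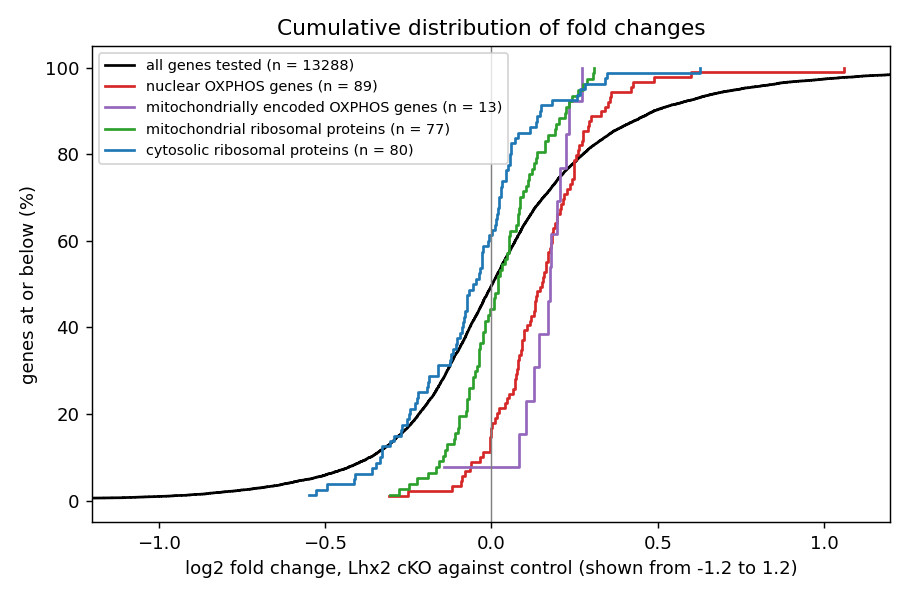
Cumulative share of genes (percent) by log2 fold change (Lhx2 cKO over control), for all genes tested, the 89 nuclear and 13 mitochondrially encoded genes, 77 mitochondrial and 80 cytosolic ribosomal proteins. At their medians, 0.15 and 0.18 beside 0.0034, the nuclear and mitochondrially encoded curves lie to the right of that of all genes. They do not do so throughout: the upper quartile was 0.2071 for the mitochondrially encoded genes and 0.2093 for all genes. Without Lhx2 cKO 2 the median of the mitochondrially encoded genes was -0.0013.

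Genes around the pathway were given from lists made by name or function. Of all genes, 11.6% were called higher and 9.17% lower, for comparison with the calls in each list. Of the 5 subunits and carriers outside the name rule, none was called, and none had an unadjusted p under 0.05. Cox4i1, a large nuclear subunit of complex IV, was at 336 and 306 CPM in control against 337 and 383 CPM in Lhx2 cKO (log2 fold change 0.16, adjusted p = 0.268), cytochrome c, Cycs, at 29.2 and 27.1 CPM against 25.7 and 26.7 CPM (-0.10), and Cyc1 of complex III at 174 and 172 CPM against 181 and 182 CPM (0.07). Of 42 other assembly factors, 0 rose and 1 fell, Foxred1, which acts in complex I assembly, from 56.5 and 62.3 CPM to 44.7 and 42.1 CPM (log2 fold change -0.45, adjusted p = 0.000942). The list's median was 0.09, and 0.04 without control 1 or without Lhx2 cKO 2. Of 23 genes for mitochondrial DNA transcription, replication and biogenesis, 0 rose and 1 fell: Mterf3, a negative regulator of mitochondrial transcription, from 39.8 and 40.3 CPM to 30.7 and 31.7 CPM (log2 fold change -0.36, adjusted p = 0.0127). Without control 2 or Lhx2 cKO 1 none was called. Their median was -0.06, opposite in sign to that of the subunits. Tfam, which packages the mitochondrial genome, was at 27.4 and 33.1 CPM against 31.6 and 30.4 CPM (adjusted p = 0.869).

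The pyruvate dehydrogenase E1 subunits moved in opposite directions: Pdha1 rose from 23.9 and 26.2 CPM to 33.1 and 30.6 CPM (log2 fold change 0.35, adjusted p = 0.029), and Pdhb fell from 94.2 and 93.2 CPM to 76.2 and 69.2 CPM (-0.37, adjusted p = 0.00519). No other of the 20 genes of this enzyme and the citric acid cycle was called, and none was without Lhx2 cKO 2. Among 22 import genes, which bring nuclear-encoded subunits into mitochondria, 2 were called, both higher (9.09%, beside 11.6% of all genes called higher). They were Timm22 of the inner membrane (log2 fold change 0.39, adjusted p = 0.00895) and the receptor Tomm20 (0.31, adjusted p = 0.0175). Neither was called without control 1 or without Lhx2 cKO 2. The 77 mitochondrial ribosomal protein genes, needed to translate the mitochondrially encoded subunits, had 0 calls by edgeR, DESeq2 or limma-voom, 4 unadjusted p under 0.05 and a median of 0.02 (-0.0058 without Lhx2 cKO 2, 0.06 without control 1). Of 80 cytosolic ribosomal protein genes, 2 rose and 9 fell (13.8% called, beside 20.8% of all genes), with a median of -0.05. Without control 1, 1 rose and 3 fell, and without Lhx2 cKO 2, 0 rose and 6 fell. Of 21 glycolysis rows, Aldoa having 2, 3 rose and 1 fell (1 rose and 0 fell without control 1), with a median of -0.02: the glucose transporter Slc2a3 (0.54) and hexokinase Hk1 (0.29) rose, and Tpi1 (-0.34) fell.

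Promoters were searched for sites of factors known to bind nuclear respiratory genes, using RefSeq windows from 250 bases before to 50 after the gene start (GRCm38.p6). Of the 89 nuclear genes 75 were matched. A gene was counted as holding a motif when any of its promoters did. The NRF1 motif, GCGCA then any base then GCGC, searched like the others on both strands, was in 19 of 75 genes (25.3%). It was in 11.2% of the 10458 tested genes with a promoter. The YY1 motif AAGATGGC was in 11 (14.7%), beside 5.08% of those tested genes. The ETS motif CCGGAAGT, bound by GABP, was in 5 (6.7%), beside 8.87%. Counted by single promoters, an unlike measure, 4.6% of 32851 held NRF1, 2.75% YY1 and 3.89% ETS. Of the 9 called genes that were matched, 2 held the NRF1 motif, 1 YY1 and 0 ETS. The 19 genes with the NRF1 motif had 2 calls and a median log2 fold change of 0.21, and the 56 without had 7 calls and a median of 0.15. Nrf1 itself was at 51.2 and 49.4 CPM in control against 45.8 and 48.5 CPM in Lhx2 cKO (adjusted p = 0.573).

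The 250 bases before the start are shown for the 2 called genes with the NRF1 motif, Sdha and Cox6a1, and for Ndufa13, which had the smallest adjusted p. All 3 lie on the minus strand and are printed 5′ to 3′ in the direction of transcription, with NRF1 matches in capitals: Sdha at chr13:74350241-74350490, Cox6a1 at chr5:115348959-115349208 and Ndufa13 at chr8:69902021-69902270.
Sdha: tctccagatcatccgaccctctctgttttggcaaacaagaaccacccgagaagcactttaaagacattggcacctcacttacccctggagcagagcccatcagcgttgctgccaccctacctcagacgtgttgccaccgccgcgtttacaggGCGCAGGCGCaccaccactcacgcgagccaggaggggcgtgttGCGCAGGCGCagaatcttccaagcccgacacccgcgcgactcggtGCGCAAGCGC
Cox6a1: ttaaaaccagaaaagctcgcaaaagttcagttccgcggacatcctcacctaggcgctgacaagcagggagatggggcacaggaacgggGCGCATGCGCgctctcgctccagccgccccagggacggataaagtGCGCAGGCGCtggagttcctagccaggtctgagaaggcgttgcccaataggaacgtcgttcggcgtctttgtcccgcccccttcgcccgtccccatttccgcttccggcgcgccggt
Ndufa13: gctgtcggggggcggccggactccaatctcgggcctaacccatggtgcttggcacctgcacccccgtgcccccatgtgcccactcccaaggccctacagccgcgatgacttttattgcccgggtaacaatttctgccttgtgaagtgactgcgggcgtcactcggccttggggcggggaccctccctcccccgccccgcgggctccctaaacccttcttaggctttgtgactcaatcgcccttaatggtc
Sdha has 3 matches, the last ending 1 base before the start, and Cox6a1 has 2, at 162 to 153 and 117 to 108 bases before it. The printed bases of Ndufa13 hold no match to any of the 3 motifs. A match is a match of letters, and binding was not measured.

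In the authors' deposited table, 10 of the 89 nuclear genes and 0 of the 13 mitochondrially encoded genes had an adjusted p under 0.05, where 20.5% of its genes had. The nuclear calls shared 9 genes with those given here, with Cox6b2 past that threshold there alone and Cox6c here alone. The table's own change column marks only Cox6b2 and Atp5g1 of the 102 genes as up, and the other 100 as NS. The medians of the authors' deposited log2 fold changes were 0.14 and 0.17.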

How the data were processed

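RNA-seq counts of 2 control and 2 Lhx2 cKO libraries of E15 mouse cortex were used as deposited by the authors: raw counts per gene with symbol and gene length in bases. Per the submitters' processing notes Trim Galore, Subread, featureCounts and edgeR were used with build mm39; the annotation, strand setting and treatment of multi-mapping reads are not given in the sources used here. The authors' log2 fold change, their log2 CPM, p-value, adjusted p-value and −log10 columns, as deposited, served only for the comparison with the authors' table.

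All genes were fitted with edgeR 4.0.16 (R 4.3.3; TMM; filterByExpr, minimum count 10, 1 gene removed; glmQLFit and glmQLFTest, two-sided, no covariates) with Benjamini-Hochberg adjustment over 13288 genes; SE is the absolute log2 fold change over the square root of F. CPM are TMM-scaled. SDs are over 2 libraries per group, and floors cover counting error only. SEs and p-values of the edgeR fit rest largely on a variance shared across genes (prior degrees of freedom 38.7, residual 2). They therefore reflect the spread of each gene's own libraries only in part. Total counts were 22294237 to 24609627. The libraries of a group differed by more than sampling noise (chi-square over its degrees of freedom, 13.9 and 14.3). The labels do not state whether a replicate number shared between groups pairs the libraries.

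Alternatives used other scalings and filters, a replicate block, a length trend, DESeq2 1.42.0, limma-voom (limma 3.58.1), a stricter threshold and each library left out. Copies came from BLAST 2.17.0 of coding sequences on GENCODE M21 transcripts, all 102 genes matched. The fit was tested on simulated data. Named genes were Lhx2, all mitochondrially encoded genes, up to 4 called subunits and the highest per complex, paralogues, up to 3 called assembly factors and up to 3 called genes per list; others were added after their values were seen. The genes and lists were chosen with earlier results of these data known. The plot of nuclear fold changes leaves out 1 gene, which is counted but not reported here.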

Additional observations from a re-analysis of the deposited data

How the results depend on the processing

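The count of nuclear calls, 10, was 10 or 11 with RLE or upper-quartile factors, scaling without mitochondrially encoded genes, no filter, a mean count of at least 50 and limma-voom, and 7 with library totals alone. It was 6 with the length trend removed, 6 with DESeq2 and 4 at an adjusted p under 0.01. With 1 library left out it ran from 2 to 12; in those fits the lone library is assumed to vary like the other group. The nuclear median, 0.15, was 0.0948 with the length trend removed and 0.1045 to 0.1712 with 1 library left out. No mitochondrially encoded gene was called, but mt-Co2 was (1 call) with upper-quartile factors, scaling without mitochondrially encoded genes, a mean count of at least 50, limma-voom and the replicate block; with 1 library left out the calls ran from 0 to 3 and the median from -0.0013 to 0.3324. The log2 fold change of Lhx2 was -0.3765 to -0.25 with 1 library left out.

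With the replicate number as a block the nuclear calls stayed at 10 and the mitochondrially encoded calls were 1. Same-numbered libraries did not deviate together (correlation 0.0028 over 13288 genes). The labels do not state whether the numbers pair the libraries, and this correlation, from 2 libraries per group, cannot settle it.

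Of the genes named by the rule stated above, these log2 fold changes changed sign. With the length trend removed, Cox6b1 was -0.0185, Cox8a -0.0986, mt-Atp8 -0.1675, mt-Nd3 -0.0126 and mt-Nd4l -0.1393. Leaving out 1 library turned others, with ranges of -0.6334 to 0.0941 for Atp5g2, -0.0998 to 0.7298 for Cox7a1, -0.0721 to 0.1421 for Cox8a, -0.1637 to 0.03 for Uqcrh, -0.379 to 0.1256 for mt-Atp6, -0.062 to 0.4161 for mt-Atp8, -0.0144 to 0.3457 for mt-Co1, -0.0013 to 0.3324 for mt-Cytb, -0.0621 to 0.2128 for mt-Nd1, -0.0534 to 0.2887 for mt-Nd2, -0.1799 to 0.3378 for mt-Nd5. Genes outside that rule turned too. Among them, with the length trend removed, Cox5b-ps was -0.0584, Cox7b -0.0332 and Uqcrfs1 -0.0307. Without Lhx2 cKO 1, Atp5d was 0.0109 and Sdhc 0.0692, and without Lhx2 cKO 2, Ndufs8 was -0.0392. What caused these turns was not tested. At 2 libraries in each group and SEs of 0.0933 to 0.411, most single nuclear differences were not detectable.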
